A study of Mus musculus with 12 samples.

Results

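The strongest stitched domains of histone H3 lysine 27 acetylation (H3K27ac) were examined in fibro-adipogenic progenitors (FAPs), the mesenchymal cells of muscle that give rise to fat and to scar tissue. In the young vehicle library, peaks that lay within 12.5 kb of each other were joined, and the sequencing tags counted in the peaks of each joined domain were summed. The 300 domains with most tags, of 3141 joined domains in all, are the members described here. They were chosen by the tags of the young vehicle library, so their height in that library is a description and not a finding. All positions are on mouse build GRCm38, on chromosomes 1 and 2 and on chromosome 3 up to 122.3 Mb, the stretch that all 4 H3K27ac peak lists cover. The members comprised 94 domains on chromosome 1, 126 on chromosome 2 and 80 on chromosome 3.

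All FAPs came from mdx mice, which lack dystrophin and serve as a model of Duchenne muscular dystrophy. The groups were young mice (1.5 months) on saline vehicle, young mice on trichostatin A (TSA), old mice (12 months) on saline vehicle and old mice on TSA. TSA, an inhibitor of histone deacetylases, was injected into the peritoneum daily for 15 days at 0.6 mg/kg/day. Cells were sorted by flow cytometry and each group gave 1 H3K27ac library and 1 library for acetylation at lysines 9 and 14 (H3K9/14ac). The sorting gate and the number of mice behind a library are not given in the sources used here, and no group without the mdx mutation is included.

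H3K27ac is laid down by the acetyltransferases p300 and CBP on nucleosomes that flank active promoters and active enhancers, and it is removed by histone deacetylases. A few long clusters of acetylated enhancers, often called stretch enhancers or super-enhancers, carry a large part of the mark, and they tend to lie at genes that define a cell type and at genes that every active cell transcribes strongly. Joining nearby peaks and ranking the joined domains by signal is the usual way to find them.

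The promoters of 6 genes are shown to give the sequence at starts whose domains recur in the results: Mcl1 (a survival factor, in the domain of rank 2), Notch1 and Egfl7 (a receptor and a secreted factor of blood vessels), Gsn (the actin-severing protein gelsolin), Vim (the intermediate filament vimentin) and Col3a1 (type III collagen). Each window runs from 250 bases before to 50 bases after an annotated start, read 5′ to 3′ on the gene's strand from RefSeq (GRCm38.p6). Capitals mark the GC box (GGGCGG, searched on both strands) in the first 4 and the TATA box (TATAAA, both strands) in the last 2.
Mcl1, chr3:95658471-95658770, plus strand: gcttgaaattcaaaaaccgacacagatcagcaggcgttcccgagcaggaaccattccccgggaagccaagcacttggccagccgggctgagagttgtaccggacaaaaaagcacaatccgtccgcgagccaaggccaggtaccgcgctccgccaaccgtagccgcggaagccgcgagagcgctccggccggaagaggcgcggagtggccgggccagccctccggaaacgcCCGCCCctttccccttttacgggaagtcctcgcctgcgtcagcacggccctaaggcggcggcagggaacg
Notch1, chr2:26503773-26504072, minus strand: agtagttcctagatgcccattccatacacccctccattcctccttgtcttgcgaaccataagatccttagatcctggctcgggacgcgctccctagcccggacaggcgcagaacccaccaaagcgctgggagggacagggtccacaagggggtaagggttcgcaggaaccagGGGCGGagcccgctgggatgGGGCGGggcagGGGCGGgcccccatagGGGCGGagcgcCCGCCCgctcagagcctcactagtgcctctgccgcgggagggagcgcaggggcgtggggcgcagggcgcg
Egfl7, chr2:26586386-26586685, plus strand: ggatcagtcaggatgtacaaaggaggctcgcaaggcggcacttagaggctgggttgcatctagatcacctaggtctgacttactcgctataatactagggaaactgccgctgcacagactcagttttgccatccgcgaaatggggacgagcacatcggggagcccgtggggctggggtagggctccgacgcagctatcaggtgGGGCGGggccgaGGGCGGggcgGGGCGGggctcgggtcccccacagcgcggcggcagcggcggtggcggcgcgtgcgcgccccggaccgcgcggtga
Gsn, chr2:35282130-35282429, plus strand: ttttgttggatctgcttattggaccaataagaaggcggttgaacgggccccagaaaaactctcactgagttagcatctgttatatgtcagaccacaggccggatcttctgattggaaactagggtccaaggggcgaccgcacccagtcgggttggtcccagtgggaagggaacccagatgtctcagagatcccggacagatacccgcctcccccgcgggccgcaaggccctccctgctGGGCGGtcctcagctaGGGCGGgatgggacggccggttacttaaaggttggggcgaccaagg
Vim, chr2:13574061-13574360, plus strand: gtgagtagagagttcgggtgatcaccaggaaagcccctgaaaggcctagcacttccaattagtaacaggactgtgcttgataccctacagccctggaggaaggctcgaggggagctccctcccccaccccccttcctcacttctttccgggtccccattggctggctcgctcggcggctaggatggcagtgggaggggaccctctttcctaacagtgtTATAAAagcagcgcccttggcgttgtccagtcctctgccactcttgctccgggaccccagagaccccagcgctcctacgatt
Col3a1, chr1:45311288-45311587, plus strand: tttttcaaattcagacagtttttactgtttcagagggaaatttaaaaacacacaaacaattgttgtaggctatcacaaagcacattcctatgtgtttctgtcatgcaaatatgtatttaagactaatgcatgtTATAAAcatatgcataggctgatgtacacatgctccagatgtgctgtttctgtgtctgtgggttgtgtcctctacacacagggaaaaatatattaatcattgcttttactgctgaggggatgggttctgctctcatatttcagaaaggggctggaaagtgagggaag
The GC box appears 5 times in the Notch1 window and 3 times in the Egfl7 window, in each case within 80 bases before the start. The TATAAA of Vim lies 32 bases before the start, whereas that of Col3a1 lies 117 bases before it.

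RefSeq windows were found for 3189 of 3789 protein-coding genes of the stretch (84.2%), and 384 windows had their start under a young vehicle peak of a member. The GC box was present in 63.0% of these 384 windows, in 65.1% of the 1758 windows with a start under any young vehicle peak, and in 46.2% of all 21263 windows of the table. TATAAA was present in 7.55%, 5.52% and 12.6% of them, and the AP-1 letters TGANTCA in 4.95%, 5.12% and 6.99%. The windows under any young vehicle peak include those of members. In the same order, E-box letters (CANNTG) were present in 53.4%, 60.1% and 69.0%, RUNX letters (TGTGGT) in 9.38%, 11.4% and 15.0%, and the CCAAT box (CCAAT) in 36.7%, 36.9% and 38.2%. TEAD letters (GGAATG) were in 13.3%, 10.9% and 13.6%, ETS letters (CCGGAAGT) in 6.51%, 9.39% and 5.15%, and CRE letters (TGACGTCA) in 1.82%, 2.50% and 2.23%, each searched on both strands. The full NFI palindrome was in 0 of the 384 and 0 of the 1758 windows, and in 7 of 21263. The GC box share of members was near that of the peak windows. The TEAD and ETS shares, which rest on 51 and 25 member windows, lay between those of the peak windows and the whole table. Differences between these shares were not tested, and motifs are not sorted by them.

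Of 161 microRNA hairpins annotated on the stretch, 19 (11.8%) lay within members and 12 of them overlapped a young vehicle peak. Among these are hairpins known from contrasting cell types: the miR-199 and miR-214 hairpins of mesenchymal cells, in the domains at the dynamin genes Dnm3 (rank 87) and Dnm1 (rank 80), and the miR-126 hairpins of endothelium, in the domain at Egfl7 (rank 27). Their mature sequences are given because the same seed, bases 2 to 8 in capitals, recurs in 2 of these domains.
miR-199a-3p, chr1:162217814-162217923 (hairpin), Dnm3 domain: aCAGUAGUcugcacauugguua
miR-199b-3p, chr2:32318460-32318569 (hairpin), Dnm1 domain: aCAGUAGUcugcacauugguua
miR-199a-5p, Dnm3 domain: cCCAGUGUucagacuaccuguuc
miR-214-3p, chr1:162223368-162223477 (hairpin), Dnm3 domain: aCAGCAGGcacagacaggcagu
miR-126a-3p, chr2:26591357-26591429 (hairpin), Egfl7 domain: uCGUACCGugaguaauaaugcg
The 3p arms of miR-199a and miR-199b have an identical sequence, so members on 2 chromosomes hold a hairpin for it. The domains themselves did not run in parallel. The Dnm3 domain held 2600 tags in young vehicle and 1578 in young TSA, and 1506 in old vehicle and 1865 in old TSA. The Dnm1 domain held 2749, 2528, 2394 and 3997 tags in the same order, and the Egfl7 domain 4186, 4390, 1952 and 3500. The highest library was thus young vehicle at Dnm3, old TSA at Dnm1 and young TSA at Egfl7.

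**Figure D1:**
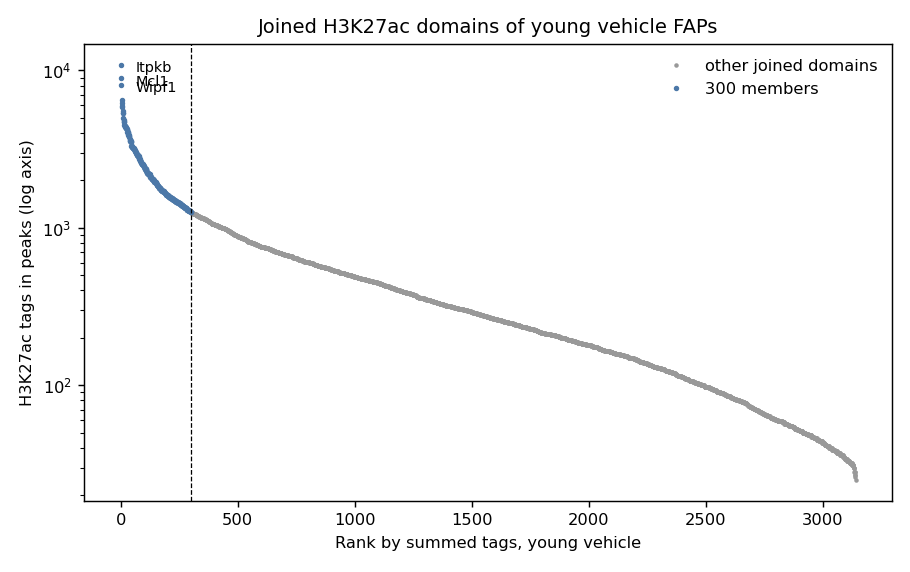
Tags summed over the young vehicle peaks of each of 3141 joined domains (vertical, log axis) against the rank of the domain (horizontal), with the 300 members left of the dashed line. The curve is steep only among the first members, from 10858 tags at Itpkb, and passes the line without a break.

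The members held 42.6% of all young vehicle tags in peaks on the stretch, 707434 of 1659160. Their tags ranged from 1264 to 10858, with a median of 1923. A member spanned 24733 bp in the median (2906 to 108581 bp) and joined 7 peaks (1 to 33), whereas a joined domain of any rank spanned 1754 bp in the median. There was no step at the limit: the last members were at Plekho1 (1272 tags), Rbm15 (1268) and Hspa5 (1264), and the first domains left out were at Nav1 (1253), Set (1250) and Trp53inp2 (1250). Most members were therefore broad clusters, but 9 were single wide peaks. Rgl1 and Col3a1 had the most peaks, 33 each, followed by Eng with 29, Itpkb with 28 and Wipf1 with 26, while Sf3b1, Mettl21a, Rprd2, Chmp4b and Rbm15 were among those with 1.

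The number of tags in peaks differed between libraries and bears on every value below. Total reads per library were not compared, so whether sequencing depth has a part was not tested. Peaks on the stretch held 1659160 tags in young vehicle and 1376021 in young TSA, and 952786 in old vehicle and 1497491 in old TSA, and only tags inside called peaks are in the lists. Tags are therefore given as deposited, and also as relative tags. A relative tag value is the log2 tag ratio of 2 libraries minus the median log2 ratio over 3706 regions that had a peak in all 4 lists. Scaled tags are tags divided by the matching factor of the library (1.16, 1.06, 0.761 and 1.09, in the order above). With 1 library per group nothing could be tested, intervals cover counting error only, and a member was called higher or lower from a 1.5-fold difference in relative tags upward. Scaling by total tags in peaks instead moved relative tags by -0.15 (old TSA against old vehicle), -0.09 (old TSA against young TSA), 0.15 (young TSA against young vehicle) and 0.19 (old vehicle against young vehicle) on the log2 scale.

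The strongest member lay over Itpkb (chromosome 1, 180328577 to 180428583), which encodes a kinase that phosphorylates inositol trisphosphate. It held 10858 tags in young vehicle and 9181 in young TSA, and 5954 in old vehicle and 10264 in old TSA, and ranked first or among the first 5 domains of every other list. The Mcl1 domain (chromosome 3, 95650097 to 95702917) held 8898, 7831, 6633 and 8747 tags in the same order. Mcl1 protects cells from apoptosis. Its domain was the strongest of the young TSA and old vehicle lists, and Itpkb that of old TSA. Peaks of young vehicle covered 47862 bp at Itpkb and 30487 bp at Mcl1. The next members by tags were at Wipf1, an actin regulator (8098, 6645, 4761 and 6972 tags), Eng, the TGF-beta co-receptor endoglin (6507, 5736, 3314 and 6199), and Lamc1, a laminin chain (6239, 4378, 3113 and 4044). Deposited tags of these 3 were lowest in the old vehicle library, the one with fewest tags in peaks. In scaled tags that held for Eng alone (5593, 5399, 4355 and 5694), while Wipf1 (6960, 6254, 6256 and 6404) was highest in young vehicle with the other libraries close together and Lamc1 (5362, 4121, 4091 and 3715) was lowest in old TSA.

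The domain at Lmna, the gene of the nuclear lamins A and C, held 5928, 5559, 4705 and 6590 tags. Rgl1, an exchange factor of Ral GTPases, held 5860, 4391, 3056 and 4544. Zfhx4, a large homeobox and zinc finger protein, held 5555, 4223, 3910 and 4645. Scaled tags gave another order: old vehicle was the highest library at Lmna (5095, 5232, 6183 and 6053) and at Zfhx4 (4775, 3975, 5138 and 4266), and young vehicle at Rgl1 (5037, 4133, 4016 and 4174). Rapgef2, an exchange factor of Rap GTPases, held 5376, 3782, 2078 and 2931 tags. The chromatin reader Zmynd8 held 5325, 4841, 3447 and 5184, the redox regulator Txnip 4982, 4476, 3593 and 4821, and the focal adhesion protein Tns1 4841, 4710, 3289 and 6001. Rapgef2 stood apart among the first 12 in the old libraries, with a relative value of -0.76 in old vehicle against young vehicle, while the other 11 lay between -0.39 and 0.28. The first 12 members thus mix cytoskeleton, nuclear structure, survival and metabolism genes, and only Lamc1 and Eng belong to matrix and vessel lists.

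Members overlapped protein-coding genes in 279 of 300 cases (93.0%, exact 95% binomial interval 89.5 to 95.6) and an annotated transcription start in 209 (69.7%, 64.1 to 74.8). Among all joined domains the shares were 73.6% and 38.0%, and among the next 300 domains by tags 89.7% and 65.7%. In all, 408 of 3789 protein-coding genes overlapped a member, which is 10.8%. Long loci were covered by several members: 21 genes overlapped 2 or more, among them Rbms1, an RNA-binding protein (4 members), Rapgef2 and the zinc finger gene Tshz2 (3 each), and Fbn1, Lamc1, Fndc3b, Dst and Ddr2 (2 each). In total 46 members shared a gene with another member in this way, so members are not independent of each other.

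Against the background of 10.8% of all genes, 73 of 272 listed genes on the stretch (26.8%) overlapped a member. The lists were chosen with earlier results of these data known, and lists of well-transcribed genes reach strong domains in any cell: of 19 housekeeping genes 6 did so, among them B2m, Rpl12, Rpl7a and Sf3b1. Of 13 genes of FAP identity and mesenchymal transcription factors, 5 lay in members and the other 8 in weaker domains. The 5 were Cd34 (a progenitor surface antigen), Dpt (dermatopontin, a matrix protein of universal fibroblasts), Gsn, Prrx1 (a homeobox factor of limb mesenchyme) and Tbx15 (a T-box factor). The defining FAP genes Pdgfra and Ly6a do not lie on the stretch. Of 34 fibrosis and matrix genes 13 lay in members, including Col3a1, Col5a1, Col5a2 and Col6a3 (collagen chains), Fbn1 (fibrillin), Fap and Adamts4 (proteases), Tgm2 (a cross-linking enzyme), Sulf1 (a heparan sulfatase) and Ddr2 (a collagen receptor), while 12 were in weaker domains and 9 in none.

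Shares of 60% or more were found for immediate early and stress genes (10 of 16, such as Mcl1, Btg2, Klf7, Nfe2l2 and Txnip), for endothelium (5 of 8) and for cytoskeleton and adhesion genes (15 of 25, such as Lmna, Tns1, Dst, Itgav and Cd44). Growth factor signalling had 6 of 22 (Bmpr2, Csf1, Fgf7, Id1, Irs1 and Tgfb2), the Wnt, Notch and Hedgehog list 3 of 15 (Jag1, Notch1 and Notch2), adipogenesis 3 of 14 (Angptl1, Fabp4 and Rxra) and chromatin regulators 3 of 11 (Mllt10, Ncoa3 and Zeb2). No member held any of 7 genes of senescence and its secretory products or of 10 Hox genes; 4 and 3 of them lay in weaker domains, including Igfbp5, Serpine2 and Hoxd9.

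The lists for other cell types check the label of the cells. Of 23 neural genes used as background none was in a member and 21 were in no joined domain. Of 14 muscle fibre genes 13 were in none, Ttn and Neb among them, and the other, Casq1, shares its member with Pea15a. Among 15 macrophage genes 12 were in none, including the leukocyte genes Ptprc and Spi1, and Sirpa alone was in a member. Lymphocytes had 0 of 15 in members (6 in weaker domains), muscle stem cells 2 of 7 (Sdc4 and Spry1), tenocytes 0 of 2 and Schwann cells 0 of 4. Endothelium was the exception: 5 of 8 genes lay in members (Egfl7, Eng, S1pr1, Sox17 and Sox18), Thbd in a weaker domain, and Sele and Selp, which are switched on in inflamed vessels, in none.

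The endothelial domains were present in all 4 libraries at unequal levels. Scaled tags summed over the 6 domains of the endothelial list were 15815 in young vehicle and 16082 in young TSA, and 11188 in old vehicle and 13965 in old TSA, or 1.11%, 1.24%, 0.894% and 1.02% of all tags in peaks. The corresponding scaled sums over 23 domains of the FAP identity list were 18025, 14197, 18763 and 18651. The endothelial sum was thus highest in young TSA and lowest in old vehicle, and the FAP sum lowest in young TSA. In sorted bulk cells, fewer cells of a type and less acetylation per cell cannot be told apart.

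**Figure D2:**
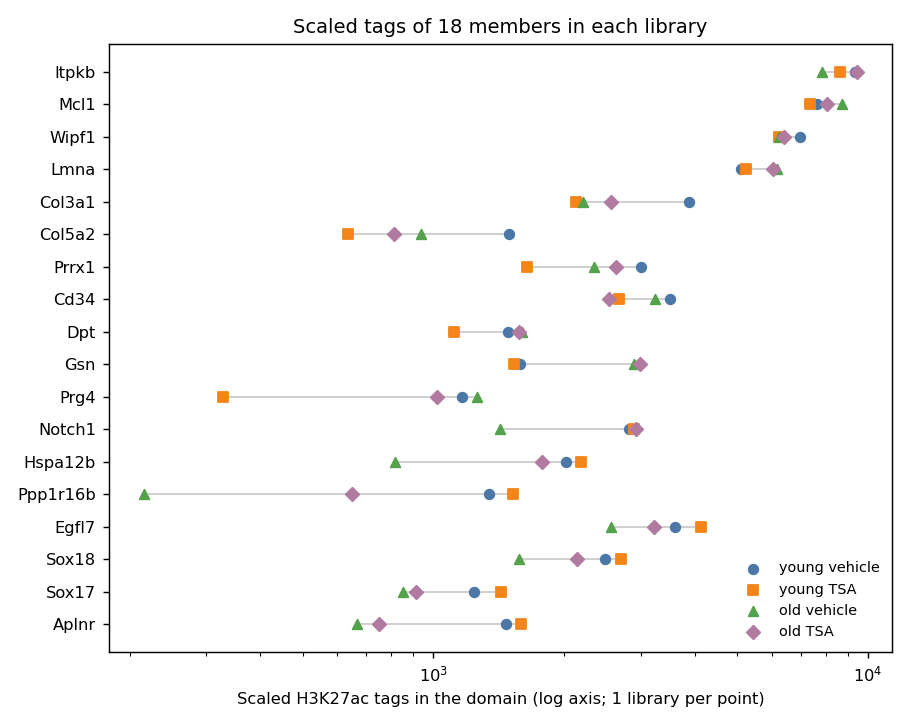
Scaled H3K27ac tags (horizontal, log axis) of 18 members, 1 point per library with colour and shape by group and no error bars, since each group is 1 library. Itpkb, Mcl1 and Wipf1 lie close together in all libraries, Gsn is separated by age, Prg4 is low in young TSA alone, and Ppp1r16b ranges from 216 scaled tags in old vehicle to 1528 in young TSA.

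The members remained acetylated in every library. All 300 had a peak in each of the other lists, and their spans held 42.6% of the tags in young TSA, 41.7% in old TSA and 44.2% in old vehicle. The next 300 domains by tags also all had a peak in each list, so this was not particular to the members. Of the joined domains compared, 406 of 2936 had no peak in young TSA and 624 of 2926 had none in old vehicle. Peaks covered 3.24 Mb of the members in young vehicle and 2.49 Mb in young TSA, and 2.05 Mb in old vehicle and 2.71 Mb in old TSA. The covered length was shorter than in young vehicle in 293 members with young TSA, in 295 with old vehicle and in 251 with old TSA, a direction that the choice on young vehicle favours. The next 300 domains were alike, with 294 shorter in young TSA and 293 in old vehicle. Between libraries that had no part in the choice, 278 of 300 members were longer in old TSA than in old vehicle, whose list also held the fewest tags. In the same way, 191 were longer in old TSA than in young TSA. Of the next 300 domains, 245 and 152 were longer in old TSA in the same order. Over the joined domains compared it was 2108 of 2556 and 1404 of 2631, so the direction was not particular to the members. Old vehicle had the lowest deposited tags of the 4 libraries in 277 members.

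Each other list was joined and ranked in the same way. Of the members, 256 (85.3%, exact binomial interval 80.8 to 89.1) overlapped a domain among the 300 strongest of young TSA, 237 (79.0%, 74.0 to 83.5) one of old vehicle, and 243 (81.0%, 76.1 to 85.3) one of old TSA. In the other direction, 257, 244 and 244 of those 300 domains overlapped a member. A core of 209 members (69.7%) was among the strongest of all 4 lists, with a median of 2234 tags in young vehicle, and 20 members were so in young vehicle alone, with a median of 1463.5. These 20 included the adhesion receptor Cd44, the collagen gene Col5a2, one of the domains of Fbn1, the lubricin gene Prg4, the endoplasmic reticulum chaperone Hspa5, Ppp1r16b and Map4k4. Missing the top 300 of a list did not always mean few tags over the member. Rank 300 stood at 1071 tags for young TSA, 777 for old vehicle, 1139 for old TSA. Tags summed over the Cd44 span were above these limits (1654, 1121 and 1371), but each list had 2 joined domains there. Ppp1r16b passed the young TSA limit, with 1623 tags. Col5a2 (676, 713 and 882) and Map4k4 (596, 237 and 573) were below every limit. The lowest rank of any member was 1381 in young TSA (a domain at Mbnl1), 1849 in old vehicle (Ppp1r16b) and 1073 in old TSA (the same domain at Mbnl1).

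Tags of the members were similar in order between libraries that had no part in choosing them. Over the 300 members Spearman's rho was 0.92 between old vehicle and old TSA, 0.86 between young TSA and old TSA, and 0.81 between young TSA and old vehicle. These values describe domains that share annotation and width, and the pair of old libraries was the closest.

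Old TSA against old vehicle asked whether the drug altered the strongest domains late in the disease, and neither library had chosen the members. The largest difference was at Ppp1r16b. Its domain (chromosome 2, 158655014 to 158703388), over a phosphatase subunit gene of endothelial cells, held 1560 tags in young vehicle and 1623 in young TSA, and 164 in old vehicle and 709 in old TSA. Its relative tags were 1.61 higher with TSA in old mice (counting interval 1.36 to 1.86), on 1002 bp covered in old vehicle and 5080 bp in old TSA. The old vehicle library was the low one, and old TSA lay between it and the young libraries.

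Hspa12b, a heat shock protein relative of endothelium, held 2353, 2320, 621 and 1936 tags, a relative difference of 1.14 (1.01 to 1.27) between the old libraries. The Notch1 domain (chromosome 2, 26474420 to 26526797), whose promoter window holds 5 GC boxes, held 3283, 3077, 1084 and 3193 tags, a relative difference of 1.05 (0.95 to 1.16). In both domains scaled tags of the young libraries and old TSA were closer to each other than to old vehicle. The next largest differences were at Tcf15, a basic helix-loop-helix factor (2199, 2178, 741 and 2040 tags; 0.96), Lhfp (2129, 1047, 653 and 1772; 0.94) and Soga1 (2865, 2414, 961 and 2524; 0.89). Lhfp differs from the others in that young TSA was low as well.

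In all, 13 members were higher in old TSA by 1.5-fold or more and 0 were lower, with a median relative difference of 0.04. The background over 2556 joined domains was 20.7% higher and 4.34% lower, a share carried by weak domains, of which 289 had no peak in old vehicle. The next 300 domains by tags are the more like comparison, and 15 of them were higher and 4 lower. The members' share of 4.33% higher was thus close to that of the next 300 and well below the background. With total tags as the scale, 9 members were higher and 3 lower. The count depends on the processing: 1 was higher and 3 lower with only touching peaks joined, 36 and 5 with peaks at gene ends left out, 30 and 0 with the widest 50% of peaks, and 119 and 0 without scaling. The lowest values were at Sh3d19, an adaptor protein (1225 tags in both old libraries; -0.50), Cflar, an inhibitor of caspase-8 (2367 and 2399 tags in old vehicle and old TSA; -0.48), and Tm4sf1 (1653 and 1729; -0.44). None of these was past the fold: their deposited tags were equal or slightly higher in old TSA, and only the relative values were below 0.

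Values of the endothelial list stand beside this result. All 5 of its members had relative tags above 0 in old TSA against old vehicle, with a median of 0.34 and a range of 0.11 to 0.46, and none was past the fold. With total tags as the scale 3 of 5 were above 0. The 300 members had a median of 0.04, with 168 above 0. Sele and Selp lay in no joined domain of young vehicle. Whether the endothelial share of the sorted cells has a part in the differences at Ppp1r16b, Hspa12b and Notch1 was not tested.

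Old TSA against young TSA compared age under the drug. Here 16 members were higher in old TSA and 7 lower, beside a background of 15.8% and 8.78% of 2631 joined domains, and 18 and 8 of the next 300. With total tags as the scale both numbers were 12, with only touching peaks joined 1 was higher, and with peaks at gene ends left out 23 were lower. The shares of the members, 5.33% and 2.33%, were again near those of the next 300 domains.

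The highest value in old TSA against young TSA was at Prg4. Its domain, at the gene of the lubricating proteoglycan lubricin, held 1352 tags in young vehicle and 349 in young TSA, and 961 in old vehicle and 1109 in old TSA. Its relative tags were 1.63 higher in old TSA than in young TSA (counting interval 1.46 to 1.81), and the young TSA library was the low one. The weaker of the 2 Fbn1 domains (chromosome 2, 125263244 to 125326113) held 1976, 680, 704 and 1447 tags, and its relative value was 1.05.

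The Gsn domain (chromosome 2, 35256424 to 35288259) followed another pattern. It held 1844 tags in young vehicle and 1628 in young TSA, and 2199 in old vehicle and 3257 in old TSA, so that both old libraries were above both young ones. The relative value was 0.97 in old TSA against young TSA (0.88 to 1.05). Peaks covered 12255, 10421, 13956 and 17532 bp of it. Other members at this end were at Nav1, a neuron navigator protein gene (1560, 840, 1237 and 1693 tags; 0.98), Stau1, an RNA-binding protein (1679, 795, 862 and 1437; 0.82) and Ralgps2 with Angptl1 (1273, 690, 815 and 1212; 0.78). In these 3 the young TSA library was the lowest.

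The lowest values in old TSA against young TSA were at Ppp1r16b, with -1.23 (-1.36 to -1.10), and at Aplnr, the apelin receptor, which held 1706, 1688, 507 and 814 tags, a value of -1.09. Palmd, which encodes palmdelphin (2536, 1781, 808 and 1073 tags; -0.77), a domain at Rapgef2 (1666, 1067, 485 and 684; -0.68) and Rbm18 (1300, 1171, 601 and 757; -0.66) followed. Sox17, a transcription factor of arterial endothelium, held 1440, 1524, 647 and 993 tags, a value of -0.65. At Ppp1r16b, Aplnr and Sox17 both old libraries were below both young ones in scaled tags.

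By list, 15 of 17 members at fibrosis and matrix genes had relative tags above 0 in old TSA against young TSA, with a median of 0.21, and 2 were past the fold. For FAP identity it was 4 of 5, with a median of 0.50 and 2 past the fold (Gsn and Prrx1). For endothelium it was 1 of 5, with a median of -0.36 and 1 past the fold (Sox17). Over all 300 members 160 were above 0, and over the 2631 joined domains 47.6%. The counts for matrix and FAP identity were the same with total tags as the scale, and that for endothelium became 0 of 5. Members at immediate early genes (5 of 10 above 0; median 0.01) and at cytoskeleton genes (12 of 21; 0.05) lay near the middle.

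**Figure D3:**
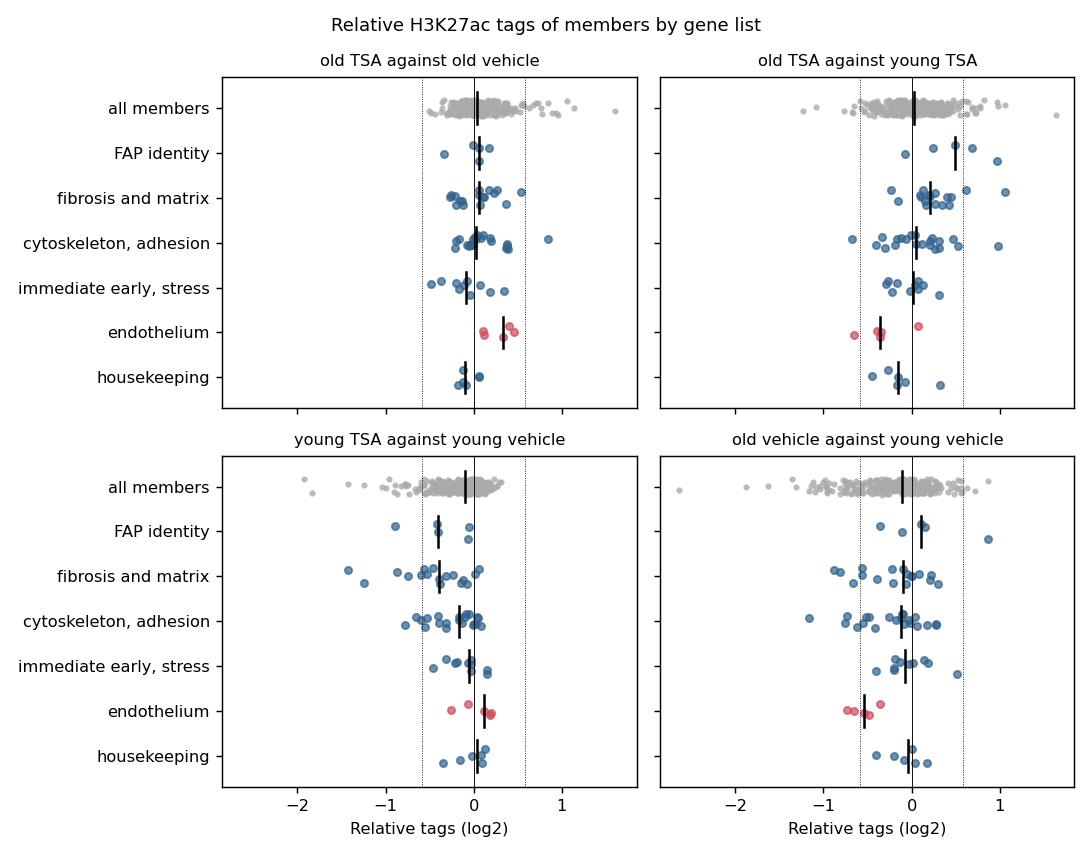
Relative H3K27ac tags (log2, horizontal) of all 300 members and of the members at genes of 6 lists, in 4 comparisons of single libraries; each point is a member, the black bar is the median, and dotted lines mark 1.5-fold. Endothelial members lie left of 0 in both comparisons of age, except for 1 of 5 under TSA, and matrix members lie mostly left of 0 in young TSA against young vehicle.

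Young TSA against young vehicle and old vehicle against young vehicle involve the library that chose the members, so falls are favoured and their counts are a description from which nothing is read. In young TSA 0 members were higher and 23 lower, beside a background of 0.238% and 29.1% of 2936 joined domains. In old vehicle 3 were higher and 49 lower, beside 2.56% and 36.9% of 2926. With total tags as the scale the latter became 15 and 25. Of the next 300 domains, 26 were lower in young TSA and 41 in old vehicle.

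Within the members the order of these differences can still be described. The lowest relative values in young TSA were at a domain of the splicing regulator Mbnl1 (1784 tags in young vehicle and 432 in young TSA, and 454 in old vehicle and 612 in old TSA; -1.93), at Prg4 (-1.83), at Fbn1 (-1.42) and at Col5a2 (1734, 676, 713 and 882 tags; -1.24). Map4k4, a kinase (1336, 596, 237 and 573 tags; -1.04), and Fmnl2, a formin (1606, 744, 598 and 1010; -0.99), followed. The Prrx1 domain (chromosome 1, 163268795 to 163322018) held 3503, 1741, 1784 and 2863 tags, the Cd34 domain 4073, 2835, 2459 and 2760, and the Dpt domain 1724, 1187, 1216 and 1716. In scaled tags young TSA was the lowest library at Prrx1 and Dpt, and old TSA was the lowest at Cd34.

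At the other end, relative tags in young TSA were highest at Tor4a (2790 and 3177 tags in young vehicle and young TSA; 0.31), Ptma, the gene of prothymosin alpha (1928 and 2161; 0.28), Fam178b (3235 and 3591; 0.27), Ier5l (1414 and 1563; 0.26), a domain near Cstad (1338 and 1450; 0.23) and Pcif1 (1395 and 1511; 0.23). None reached 1.5-fold. In old vehicle against young vehicle the highest were at Gsn (0.87), the ectonucleotidase Entpd2 (1353 and 1456 tags in young and old vehicle; 0.72) and the metalloreductase Steap3 (3180 and 3206; 0.63). Those 3 domains were past the fold in relative tags, which depends on the scaling. Without scaling 0 members were higher in old vehicle, and with total tags as the scale 15 were. Kirrel, a cell adhesion protein (3245 and 3140 tags; 0.57), the protease inhibitor Cst3 (2547 and 2447; 0.56) and Fam227b with the growth factor gene Fgf7 (1524 and 1464; 0.56) came next. The lowest were at Ppp1r16b (-2.64), Map4k4 (-1.88), a domain of Rbms1 (2217 and 469 tags; -1.63), Mbnl1 (-1.36), Hspa12b (-1.31) and Rapgef2 (-1.17).

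By list, 15 of 17 members at matrix genes were below 0 in young TSA against young vehicle (median -0.39, 5 past the fold), as were 5 of 5 at FAP identity genes (median -0.40, 1 past the fold, Prrx1). Of all 300 members, 79 were above 0. Members at endothelial genes had a median of 0.11, with 3 of 5 above 0. In old vehicle against young vehicle all 5 endothelial members were below 0 (median -0.54, 2 past the fold, S1pr1 and Sox18), beside a median of 0.11 with 3 of 5 above 0 for FAP identity. Of all 300 members 104 were above 0 in that comparison (median -0.10), and of all joined domains 27.3%, so values below 0 were the rule. With total tags as the scale, 12 of 17 matrix members and 3 of 5 FAP members were below 0 in young TSA, and the 5 endothelial members were still below 0 in old vehicle.

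The comparisons of age under vehicle and under TSA use separate libraries. Over the 300 members Spearman's rho between their relative values was 0.54, over 2171 joined domains with a peak in every list it was 0.39, and 85 members were above 0 in both and 121 below 0 in both. The comparisons of TSA in young and in old mice, which also share no library, gave a rho of 0.16 over the members and 0.14 over all domains. Members are not replicates, since they share libraries and depth, so these are descriptions. One side of each pair involves young vehicle, by which the members were chosen.

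**Figure D4:**
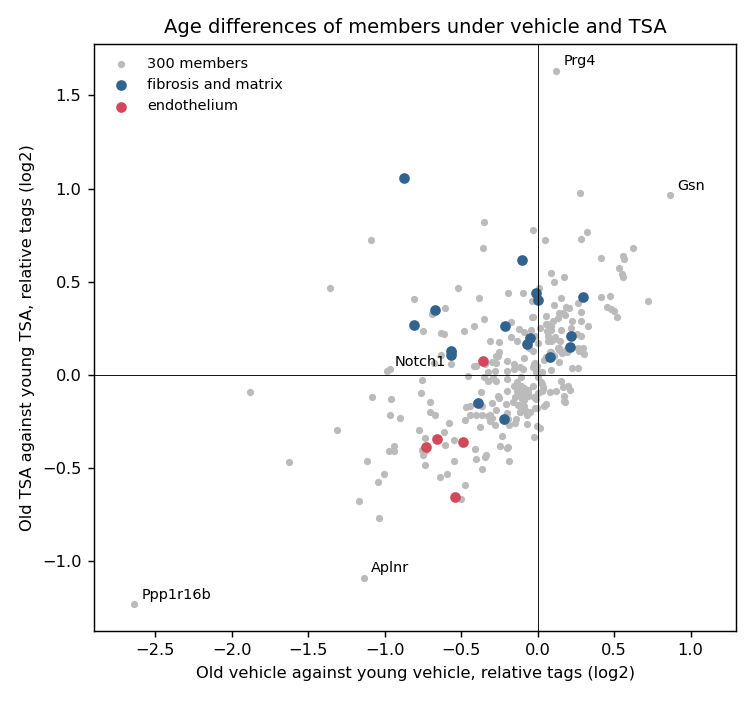
Relative H3K27ac tags (log2) of the 300 members in old against young libraries under vehicle (horizontal) and under TSA (vertical); each point is a member, with members at matrix and endothelial genes in colour. Ppp1r16b and Aplnr are low in both, Gsn is high in both, Prg4 is high only on the TSA axis and Notch1 is low only on the vehicle axis.

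The peaks inside a member differed in layout as well as in number. The Col3a1 domain (chromosome 1, 45290125 to 45357508) had 33 peaks over 23798 bp in young vehicle and 18 over 12009 bp in young TSA, and 16 over 8860 bp in old vehicle and 28 over 16439 bp in old TSA. It held 4505, 2262, 1678 and 2791 tags. Its strongest peak lay around the annotated start of the gene in 3 libraries (664, 404 and 353 tags in young vehicle, young TSA and old vehicle). In old TSA the single peak with most tags lay at the far end of the domain (371 tags). There the signal around the start was called as adjacent peaks of 275, 75 and 57 tags. The first of these held 255 tags per kb and the far peak 145, so the signal did not move away from the start.

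The Gsn domain showed a single peak of 1155 tags at its far end in old TSA, which reached 31.9 kb from the first base of the domain, where young vehicle had 4 separate peaks. The strongest Gsn peak of young vehicle lay elsewhere in the domain and held 596 tags. At that place old TSA had a peak of 816 tags. It held 237.5 tags per kb and the far peak of old TSA 168.9, so the signal did not move to the far end. In the Egfl7 domain (chromosome 2, 26569337 to 26604270) a peak of 1338 tags covered the middle in young vehicle, and old vehicle had 13 peaks of at most 336 tags. In the Notch1 domain the strongest peak held 1309 tags in young vehicle and 999 in young TSA, and 311 in old vehicle and 542 in old TSA, and old TSA had 22 peaks where the others had 10 or 11. Part of this higher number was a split of the same signal. Between 22.8 and 29.4 kb from the first base, old TSA had a run of adjacent peaks. There young vehicle had its strongest peak, from 22.4 to 29.4 kb. The strongest peak held 252 tags per kb in old TSA and 185 in young vehicle. Notch1 in old TSA thus reached the tags of the young libraries in more called peaks.

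**Figure D5:**
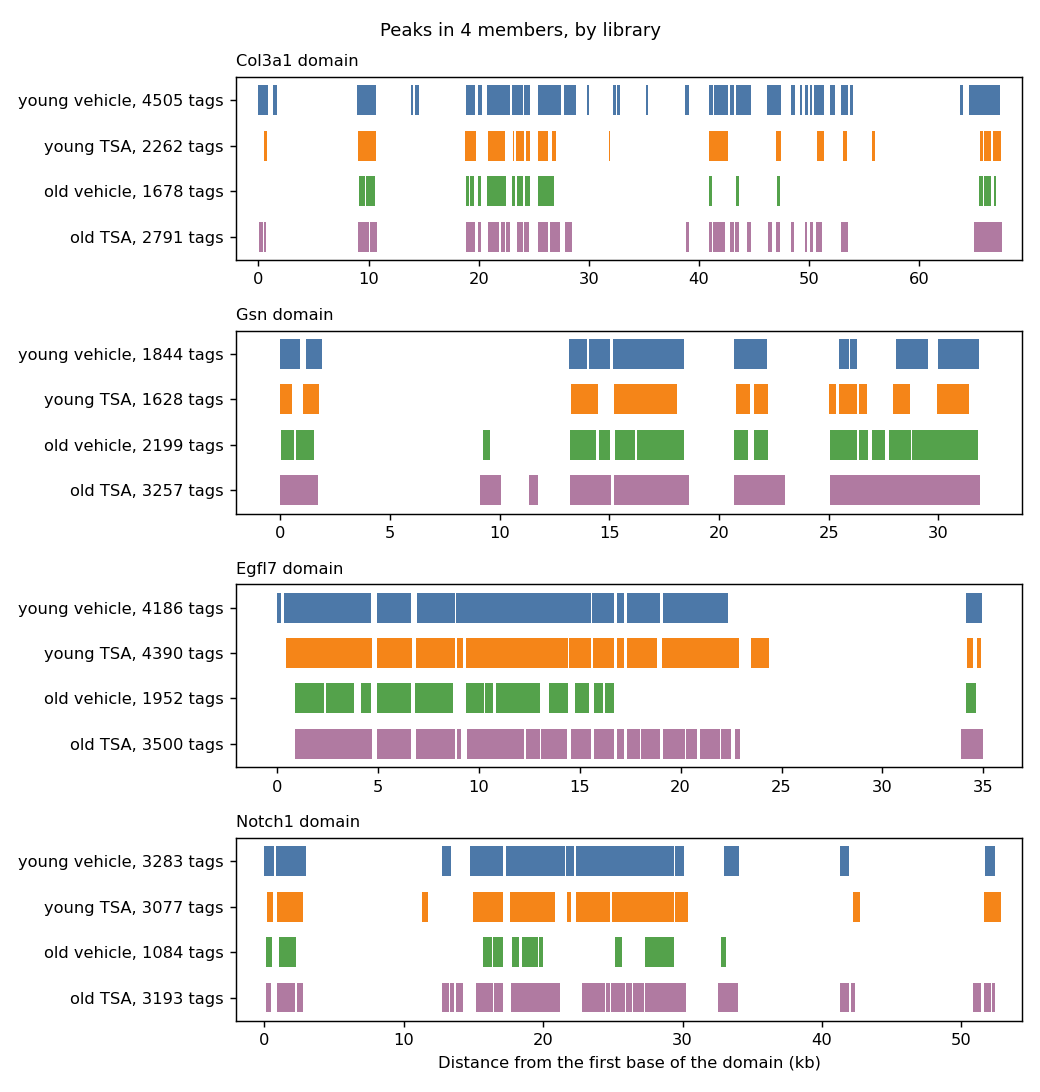
Peaks (bars, to scale) of each H3K27ac library in 4 members, by distance in kb from the first base of the domain; the number of tags in the domain stands beside each library. Peaks of every library leave much of the Col3a1 and Notch1 domains uncovered, those of old vehicle, the library with fewest tags in peaks, the most. At Gsn the old libraries cover more than the young ones.

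Peaks over a transcription start held 31.0% of the members' tags in young vehicle and 34.5% in young TSA, and 27.2% in old vehicle and 30.4% in old TSA, and 36.7%, 44.1%, 34.2% and 35.2% outside the members. In young TSA against young vehicle the relative tags of start peaks were 0.01 and those of other peaks -0.22, summed over the members. Of 170 members with both kinds in both libraries, the start part was the higher one in 130. In old TSA against young TSA it was the lower one in 112 of 162 members, with sums of -0.13 and 0.14. Both differences were also present outside the members, at 0.45 and -0.54 (start minus other, log2), so they were not particular to strong domains. Splitting tags at 1 kb either side of a start gave the same signs, 0.39 and -0.15 in members. For the 2 comparisons with old vehicle the sign turned between these ways of splitting (0.23 and -0.17 for old TSA, -0.26 and 0.41 for old vehicle against young vehicle), and no direction is given for them.

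H3K9/14ac, a mark of active starts, was compared on chromosome 1 and on chromosome 2 up to 167.1 Mb, which hold 206 members. It was a readout that the choice of members did not use. A peak was present in 188 members in young vehicle (91.3%, exact binomial interval 86.5 to 94.7), in 195 in young TSA (94.7%), in 195 in old vehicle (94.7%) and in 190 in old TSA (92.2%). Over all 2351 joined domains the shares were 55.0%, 58.1%, 57.5% and 54.7%, and over the next 300 domains between 88.5% and 93.6%. In 186 members all 4 libraries had a peak. The members with none included domains at Rbms1, Fbn1, Ddr2, Nav1, Plcb1, Prg4, Cops8 and Wdr75, the last of these, Cops8 and Plcb1 being the nearest genes of domains that overlap none. The median member had 29.4% as many bp under H3K9/14ac as under H3K27ac in young vehicle, beside 55.8% for the next 300 domains.

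The levels of the 2 marks did not go together in the same way at both ages. H3K9/14ac tags at Notch1 were 454 in young vehicle and 1627 in young TSA, and 1032 in old vehicle and 502 in old TSA. At Gsn they were 180, 423, 1146 and 464, and at Col3a1 272, 49, 40 and 214. At Prrx1 they were 621, 534, 622 and 541. Over the members with 50 or more H3K9/14ac tags in both libraries, Spearman's rho between the relative values of the 2 marks was 0.53 for young TSA against young vehicle (187 members) and -0.31 for old TSA against old vehicle (184 members). Between H3K9/14ac libraries, the tags of members were closest for young TSA and old vehicle (rho 0.90), and between H3K27ac libraries apart from young vehicle, for the old pair (0.92). Whether the H3K9/14ac libraries of 1 age are named the right way round was not tested and their directions by treatment are therefore not described further.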

How the data were processed

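The 8 peak lists of the series were used, 1 for each mark, age and treatment; 4 input samples were not used here. Per the file headers, the authors wrote each list with HOMER's differential peak program, setting a library against itself, and deposited a whole-number tag count per peak, not scaled to depth. The submitters' processing notes name Bowtie 0.12.7, MACS2, HOMER and build GRCm38, with no role for each. The lists as used here break off along the genome, so each mark was compared over the stretch shared by its 4 lists.

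With Python 3.11.15, pandas 2.3.3, numpy 2.4.6 and scipy 1.17.1, young vehicle peaks within 12.5 kb of each other were joined and ranked by summed tags. Peaks of other lists gave tags in proportion to their overlap with a domain. Relative tags are log2 ratios minus the median over 3706 regions with a peak in all 4 H3K27ac lists, and a domain was compared from 50 tags in at least 1 library upward. No test was possible with 1 library per group; counts past a 1.5-fold difference are described. Intervals are exact 95% Poisson or binomial (Clopper-Pearson) intervals and cover counting error only.

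The members and gene lists were chosen with earlier results of these data known. Domains bear the name of the protein-coding gene with most covered bp in them, or else the nearest gene. Members were named by rule: the first 12, those around the limit, the 6 highest and 6 lowest of each comparison with at least 50 tags in both libraries, those of highest and lowest rank in other lists, those at listed genes, and those with most and fewest peaks. The calling step was tried on simulated counts and the joining step on a small made-up list of peaks. Alternatives covered joining distance, number of members, scaling, fold, peak width, gene ends and overlap. An equal number of peaks per list and the split at 1 kb around starts were added after seeing the data. Results on a few items are not reported here.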

Additional observations from a re-analysis of the deposited data

Results flagged for a closer look

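At 2 members the TSA library lay past 1.5-fold on opposite sides of vehicle in young and old mice. The Lhfp domain had relative tags of -0.91 with TSA in young mice and 0.94 in old mice, a difference of 1.84 on the log2 scale. The Map4k4 domain had -1.04 and 0.77, a difference of 1.81. With 1 library per group the difference between ages was not tested, and the young values rest on the library by which the members were chosen, which favours a fall.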

How the results depend on the processing

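With 1 library per group, no replicate could be left out and no result could be tested. No paired analysis was possible because each group has 1 library and the labels give no replicate numbers. Comparisons with old vehicle are the most limited: that library has the fewest tags in peaks, and a signal under its calling limit is missing from its list. Of 125 alternative values, 87 stayed within the exact binomial interval of the reported share (for listed genes, within 1.5 times of the count) and 38 moved. The cause of a move was not tested.

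Shares of members past 1.5-fold were 4.33% higher and 0% lower in old TSA against old vehicle, 5.33% and 2.33% in old TSA against young TSA, 0% and 7.67% in young TSA against young vehicle, and 1% and 16.3% in old vehicle against young vehicle. With only touching peaks joined (0 bp), the higher share became 0.333% in both comparisons of old TSA, and the lower share 0% in young TSA and 2.33% in old vehicle. Scaling by total tags gave 5% higher and 8.33% lower in old vehicle. No scaling gave 39.7% higher in old TSA against old vehicle, 12% lower in young TSA, and 0% higher and 68.3% lower in old vehicle against young vehicle. With peaks at gene ends left out, the shares were 12% higher and 1.67% lower in old TSA against old vehicle, 7.67% lower in old TSA against young TSA, 14.7% lower in young TSA and 31% lower in old vehicle. The widest 50% of peaks gave 10% higher in old TSA against old vehicle. At a fold of 2, these shares were 1% higher in old TSA against old vehicle, 0.667% higher and 0.667% lower in old TSA against young TSA, 1.67% lower in young TSA, and 0% higher and 4.33% lower in old vehicle. Equal lists of the 5727 peaks with most tags, an alternative chosen after seeing the data, gave 11.7% lower in old vehicle.

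The members' share among the 300 strongest domains of old TSA (81.0%) was 73.3% with peaks joined at 0 bp and 85.3% at 25 kb. With 600 members the shares were 89.2% for young TSA, 85.7% for old vehicle and 86.5% for old TSA. When at least 50% of the span had to overlap they were 75%, 65.3% and 75%. The share of members with H3K9/14ac fell to 85.4% in young vehicle, 88.3% in young TSA, 84.5% in old TSA and 85% in old vehicle with the widest 50% of its peaks. When 10% of the H3K27ac bp had to be covered it was 89.3% in young TSA, 86.9% in old TSA and 84.5% in old vehicle. Of 73 listed genes in members, 63 had an end under a peak, and 75 were counted with domains extended by 10 kb.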

Other observations

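Some of the strongest domains of the other lists lay outside the members. They were picked as strong in the other list and outside the members, so lower tags in young vehicle are favoured by this choice. Young vehicle tags given here are those of the strongest overlapping young vehicle domain over its own span. Tags of both libraries are as deposited. In old TSA, 56 of the 300 strongest overlapped no member. The first of them lay at Nav1 (chromosome 1, 135507567 to 135549543), with rank 70 and 2582 tags, where young vehicle had a domain of 1253 tags. Hmcn2, a hemicentin gene, followed with 2357 tags (1133 in young vehicle), and Pkig, which encodes an inhibitor of protein kinase A, with 2179 (1200). Lama5, a laminin chain, held 1905 tags in old TSA and 1113 in young vehicle. In old vehicle the first such domain lay at Serping1, the gene of the C1 inhibitor of complement, and Ube2l6, with 1399 tags there and 857 in young vehicle. In young TSA the first was at rank 201, at Uckl1 and its neighbours.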
